A study of Mus musculus with 75 samples.

Results

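Iron handling in gastrocnemius, a hindlimb calf muscle, was followed through 8 genes that encode the proteins for iron entry, storage, exit and sensing. The 8 genes were chosen by symbol (Tfrc, Slc11a2, Fth1, Ftl1, Ncoa4, Slc40a1, Ireb2 and Aco1), and all 8 were found among the 13856 genes of the deposited expression table. The libraries are bulk RNA sequencing of whole muscle from male and female Balb/c mice, compared within each sex. The study set a tumour and 3 chemotherapy drugs side by side, and asked how their effects on muscle differ between the sexes.

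The drug-treated mice carried C26 cells, a mouse colon carcinoma line used as a model of cancer cachexia, and received 5-fluorouracil, paclitaxel or cisplatin at 75% of the maximum tolerated dose. Dosing began on day 12 after the cells were injected and ran for 2 cycles, with 2 injections a week. The C26 saline mice carried the same cells and received the vehicle, and the PBS saline mice received PBS in place of cells and the same vehicle. Muscle was taken on day 25 in every group. In the order 5-fluorouracil, paclitaxel, cisplatin, C26 saline and PBS saline, the female groups had 8, 7, 6, 7 and 7 libraries and the male groups 8, 6, 8, 8 and 8. Every drug group carried tumour cells, so a drug was always compared on top of the tumour, and the age of the mice cannot be read from the design text.

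Cells take up iron bound to transferrin through the transferrin receptor, move it out of the endosome through a divalent metal transporter, store what they do not use inside ferritin, and release it through ferroportin. Iron stored in ferritin is returned to the free pool when the cargo receptor NCOA4 carries ferritin to lysosomes. When iron is scarce, the iron regulatory proteins (encoded by Aco1 and Ireb2) bind hairpins called iron-responsive elements: binding in the 3′ UTR protects the Tfrc mRNA from decay, and binding in the 5′ UTR holds back translation of ferritin and ferroportin. Skeletal muscle holds much of its iron in myoglobin and in the respiratory chain.

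The hairpins are shown because they are the feature that ties mRNAs to one control system, and 4 of the 8 mRNAs held the pattern searched. A hairpin was counted where a C sits 5 paired bases ahead of a loop spelled CAGTGN in a UTR of a protein-coding transcript, read on the transcript strand only, with at least 4 further pairs below the C, G·T pairs included. Of 21901 protein-coding mouse genes, 30 (0.137%) held such a hairpin, and 294 (1.342%) held one when pairs below the C were not required. Capitals mark the unpaired C and the loop, all sequences read 5′ to 3′ as DNA, and they come from GENCODE vM21 transcripts with positions on GRCm38, an older build than the GRCm39 named in the submitters' processing notes. The 5′ UTR hairpins of the 2 ferritin subunits lie at chr19:9982733-9982759 on the plus strand (Fth1) and chr7:45459780-45459806 on the minus strand (Ftl1), and that of ferroportin at chr1:45925466-45925492 on the minus strand (Slc40a1).
Fth1: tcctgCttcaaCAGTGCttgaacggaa
Ftl1: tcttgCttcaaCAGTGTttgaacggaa
Slc40a1: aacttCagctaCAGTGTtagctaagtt

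Tfrc held 4 hairpins in its 3′ UTR on chromosome 16, plus strand, more than any other of the 8 genes. They lie at chr16:32631220-32631246, chr16:32631599-32631625, chr16:32631664-32631690 and chr16:32631711-32631737, in this order below.
Tfrc hairpin 1: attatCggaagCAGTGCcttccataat
Tfrc hairpin 2: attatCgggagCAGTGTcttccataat
Tfrc hairpin 3: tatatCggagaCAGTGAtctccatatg
Tfrc hairpin 4: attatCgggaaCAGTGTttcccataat
The pattern was not found in the transcripts searched for Slc11a2, Ncoa4, Ireb2 and Aco1, which says only that these letters were not in those UTRs. A hairpin with an unpaired base between the C and the loop would not match the pattern.

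The libraries held 11.4 to 40.5 M estimated counts each, and the 12 fast skeletal muscle markers summed to between 140511 and 411723 on the back-transformed scale in every library, so the labelled tissue was plain in all of them. Log2 changes below come from limma fitted over all 13856 genes and all 73 libraries, with Benjamini-Hochberg adjusted p-values, and a gene is said to have risen or fallen only at an adjusted p under 0.05. In 19 libraries the values leaned towards GC-rich transcripts: their GC slope (the change in a library's log2 values per SD of transcript GC content) exceeded 0.1. These 19 had a median of 2.58% of expression in mitochondrially encoded genes, against 10.5% in the other 54. They were spread unevenly, at 4 of 6 male paclitaxel, 4 of 8 male 5-fluorouracil, 2 of 8 male cisplatin, 0 of 8 male C26 saline and 2 of 8 male PBS libraries, and at 2 of 8, 2 of 7, 0 of 6, 1 of 7 and 2 of 7 female libraries in the same order of groups. For the 8 genes, results that rest on them are given with and without them. For all other genes named or counted below, only the fit of all libraries is given. The labels do not say that the libraries of a group came from separate extractions, so the p-values cover the spread among the libraries and no more.

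**Figure D1:**
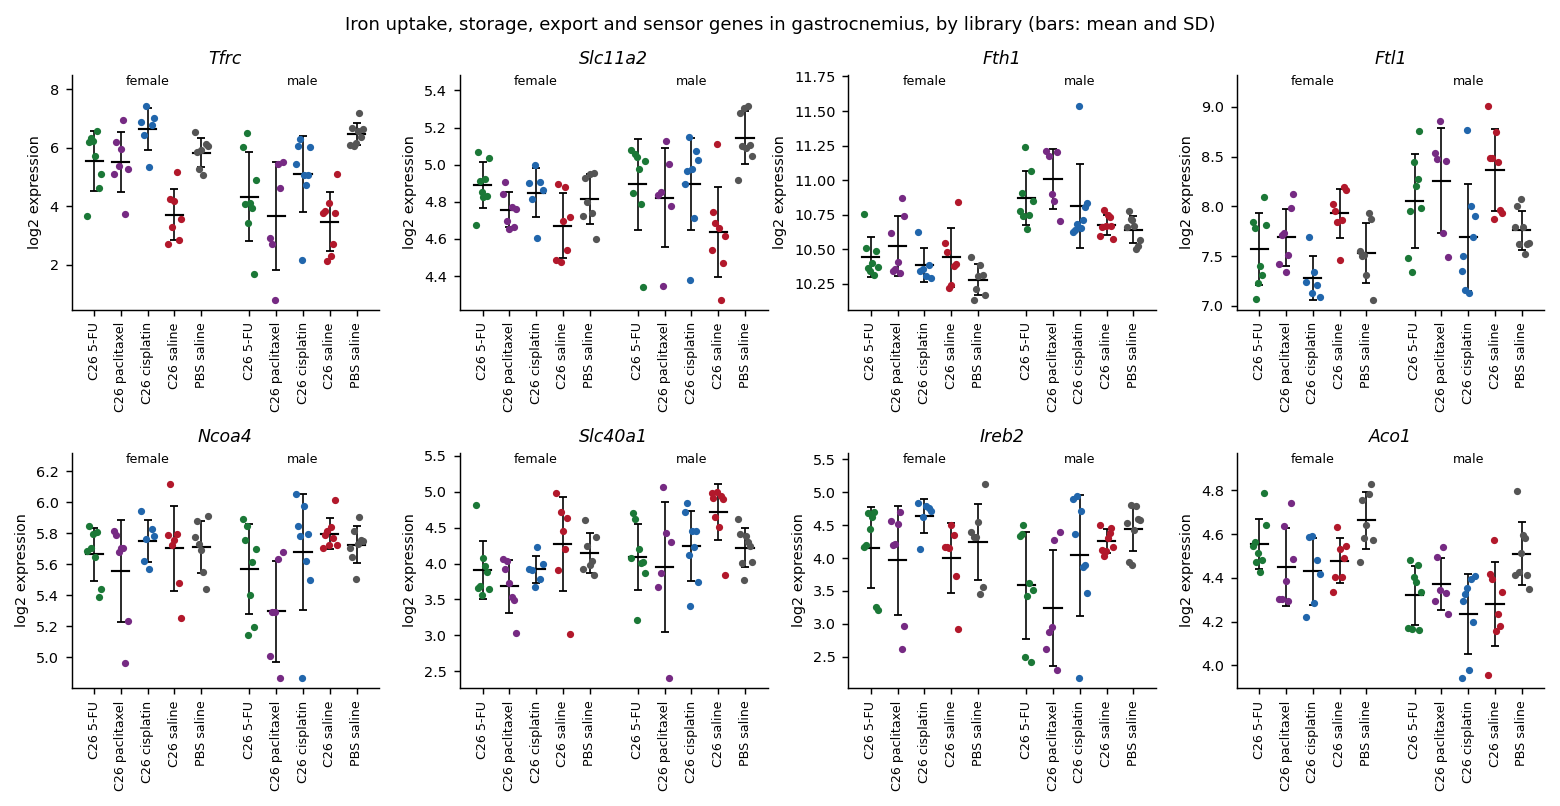
Log2 expression of each of the 8 genes (vertical axis, deposited log2 values, a scale of its own per gene) in every library, by sex and group, with the mean and SD of each group as bars. Tfrc spans the widest range of the 8, and its 8 male C26 saline libraries all sit below the 8 male PBS libraries.

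Tfrc, the transferrin receptor (ENSMUSG00000022797), was the gene of the set that moved most. In females it lay at 2.71, 3.58 and 5.16 (lowest, median and highest log2 value) in C26 saline muscle, against 5.09, 5.91 and 6.53 in PBS muscle. Only 1 of the 7 C26 saline libraries reached into the PBS range. Its mean was 3.72 ± 0.87 in C26 saline and 5.83 ± 0.50 in PBS females (SD, n = 7 each), and it fell by 2.12 ± 0.57 on the log2 scale (SE; fold 0.231, adjusted p = 0.0120, limma).

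In males Tfrc lay at 2.14, 3.78 and 5.10 in C26 saline muscle, against 6.08, 6.47 and 7.19 in PBS muscle. All 8 C26 saline libraries were below all 8 PBS libraries. The means were 3.47 ± 1.01 and 6.48 ± 0.38 (SD, n = 8 each), and it fell by 3.01 ± 0.53 (SE; fold 0.124, 95% interval −4.07 to −1.95, adjusted p = 9.66e-06, limma). By size of fall Tfrc ranked 17 of 13856 genes in each sex. The difference between the sexes in this fall, male minus female, was −0.89 (95% interval −2.44 to 0.65, adjusted p = 0.865), which did not exceed the spread between libraries.

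Under each drug Tfrc averaged higher than in C26 saline muscle of the same sex, by amounts that differed between drugs. Cisplatin gave the clearest values in females: Tfrc lay at 5.35, 6.83 and 7.44 under cisplatin, against 2.71, 3.58 and 5.16 in C26 saline muscle. The 6 cisplatin libraries were all above the 7 C26 saline libraries. Tfrc rose by 2.93 ± 0.59 (SE; fold 7.64, adjusted p = 0.00212, limma), and its mean under cisplatin exceeded that of PBS females by 0.82 ± 0.59, which did not pass the test (adjusted p = 0.776).

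In males Tfrc lay at 2.17, 5.27 and 6.29 under cisplatin, against 2.14, 3.78 and 5.10 in C26 saline muscle. The ranges overlapped, with 7 of 8 cisplatin libraries above the C26 saline mean. The rise was 1.64 ± 0.53 (SE; fold 3.12, adjusted p = 0.0241), and it missed the threshold when only the compared groups entered the fit (adjusted p = 0.0578) or when any one of 6 libraries was left out (log2 change 1.45 to 1.53, adjusted p 0.0514 to 0.0698). Those were C26 saline replicates 3, 5 and 6 and cisplatin replicates 2, 3 and 8. Without the libraries of GC slope over 0.1 the rise was 1.98 (adjusted p = 0.000692).

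5-Fluorouracil left Tfrc at 3.66, 5.96 and 6.57 in females, against 2.71, 3.58 and 5.16 in C26 saline females. Here 7 of 8 libraries were above the C26 saline mean and 5 above every C26 saline library. The difference of 1.84 ± 0.55 (SE; fold 3.57) did not pass the test over all genes (adjusted p = 0.0772), and did so once high-slope libraries were left out (2.05, adjusted p = 0.0125) or without 5-fluorouracil replicate 1 (2.11, adjusted p = 0.0285). With quality weights the female difference was 2.16 (adjusted p = 0.000238). In males Tfrc lay at 1.70, 4.09 and 6.50 under 5-fluorouracil, against 2.14, 3.78 and 5.10 in C26 saline muscle. The 5-fluorouracil libraries spread past the C26 saline range at both ends. The difference was 0.87 ± 0.53 (adjusted p = 0.223), against 1.67 once high-slope libraries were left out (adjusted p = 0.0142), which lay at 1.70 to 4.92 where the other 4 lay at 3.95 to 6.50.

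Paclitaxel left Tfrc at 3.73, 5.39 and 6.94 in females, against 2.71, 3.58 and 5.16 in C26 saline females. All 7 paclitaxel libraries were above the C26 saline mean and 5 above every C26 saline library. The difference of 1.80 ± 0.57 (SE; fold 3.48) did not pass in the fit of all groups (adjusted p = 0.514). With quality weights in that fit the difference was 2.07 (adjusted p = 0.0120). Every same-numbered pair of these libraries deviated together. With the replicate number as a block, the difference in the fit of all groups was 1.80 (adjusted p = 0.467). In a fit of these 2 groups alone, added after seeing the data, the block gave an adjusted p of 0.00267. Same-numbered pairs were not compared with other pairs, and replicate 7 had a high GC slope in both groups (0.439 in C26 saline, 0.374 in paclitaxel). The deviations therefore do not show that the numbers pair the mice.

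In males Tfrc lay at 0.81, 3.78 and 5.53 under paclitaxel, against 2.14, 3.78 and 5.10 in C26 saline muscle. The medians were equal to 2 decimals and the difference was 0.21 ± 0.57 (adjusted p = 0.806). The 4 paclitaxel libraries of high GC slope lay at 0.81 to 4.63 and the other 2 at 5.45 to 5.53, above every male C26 saline library. When every library of high GC slope was left out, which kept these 2, the difference was 2.02 (adjusted p = 0.0478).

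**Figure D2:**
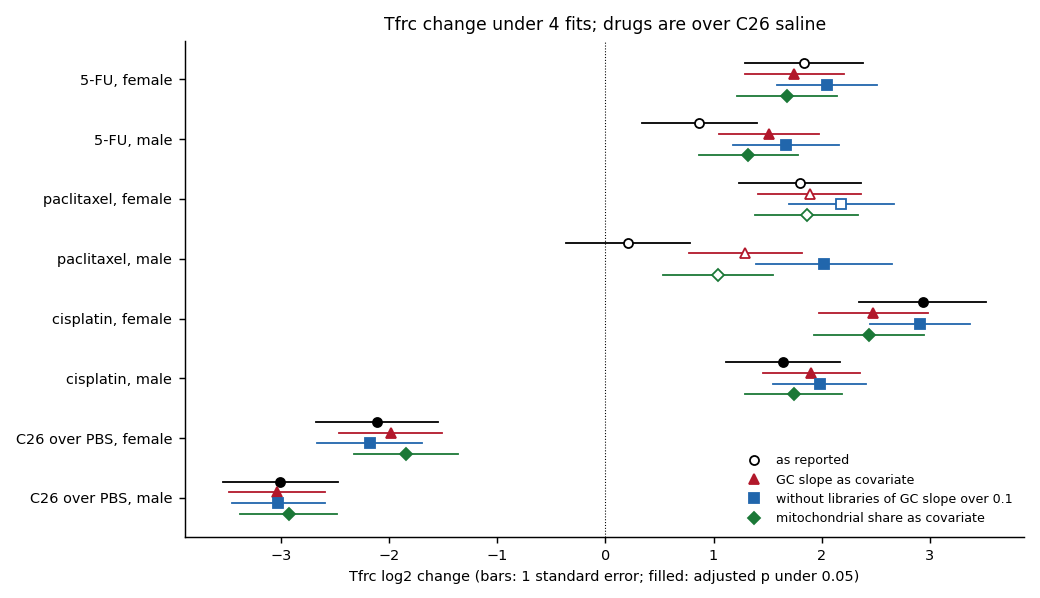
Tfrc log2 change (horizontal axis) for each drug over C26 saline and for C26 saline over PBS saline, by sex, under 4 fits; points are estimates, bars 1 standard error, and filled points an adjusted p under 0.05. The 4 fits lie close together except in male 5-fluorouracil and male paclitaxel, where the estimate as reported (0.87 and 0.21) is the lowest of the 4.

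Set against PBS muscle rather than C26 saline muscle, Tfrc under the drugs passed the test in no female group. The log2 differences were −0.28 for 5-fluorouracil (95% interval −1.37 to 0.82), −0.31 for paclitaxel (−1.45 to 0.82) and 0.82 for cisplatin (−0.36 to 1.99), with adjusted p of at least 0.776. In males its mean was lower in each drug group than in PBS muscle. Tfrc fell by 2.14 ± 0.53 under 5-fluorouracil (SE; adjusted p = 0.0113), a call that was lost without replicate 7 (−1.76, adjusted p = 0.0704) and once high-slope libraries were left out (−1.35, adjusted p = 0.204). It fell by 2.80 ± 0.57 under paclitaxel (adjusted p = 0.000389), against −1.003 without those libraries (adjusted p = 0.572). Under cisplatin it was −1.37 ± 0.53 relative to PBS (adjusted p = 0.235). The male-minus-female differences in the drug effects on Tfrc were −0.97 for 5-fluorouracil, −1.59 for paclitaxel (95% interval −3.20 to 0.01) and −1.29 for cisplatin, and none passed the test (adjusted p 0.258 to 0.501).

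Immature red cells carry much transferrin receptor, so their markers are given beside it. Of 20 erythroid and reticulocyte markers 12 were measured, and their summed back-transformed level ran over 2256 to 4027 in male C26 saline, against 1888 to 9142 in male PBS libraries. In females it ran over 1169 to 1854 under cisplatin, 1579 to 3490 in C26 saline and 1359 to 2344 in PBS libraries. Among these markers Slc4a1 was at 0 counts in 4 libraries and Epor in 1. C26 saline over PBS, 2 of the 12 rose (Slc4a1 and Sptb) and 2 fell (Ank1 and Bpgm) in males, and 2 rose (Slc4a1 and Alas2) and 1 fell (Ank1) in females. Ank1, which muscle also expresses and which held 18.3% of the summed level, was −1.22 ± 0.19 in males and −0.72 ± 0.20 in females, while Slc4a1, at 0.0211% of the summed level, was 1.70 ± 0.58 and 2.33 ± 0.62. Sptb held 15.1% of the summed level, with a mean log2 value of 8.60 beside 8.81 for Ank1. The part of red cells in the Tfrc values was not tested. In bulk muscle, fewer cells of a type and less RNA per cell cannot be told apart.

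Slc11a2, which encodes the divalent metal transporter DMT1 that moves iron out of the endosome (ENSMUSG00000023030), followed Tfrc in direction on a much smaller scale. In males it lay at 4.27, 4.64 and 5.11 in C26 saline muscle, against 4.92, 5.10 and 5.32 in PBS muscle. All but 1 of the 8 C26 saline libraries were below every PBS library. It fell by 0.51 ± 0.10 (SE; fold 0.703, adjusted p = 4.39e-05, limma). In females it averaged 4.67 ± 0.18 in C26 saline and 4.81 ± 0.14 in PBS muscle (SD, n = 7 each), a difference of −0.14 that did not pass (adjusted p = 0.510), and the difference between the sexes, −0.37, did not pass either (adjusted p = 0.429).

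Under the drugs Slc11a2 was slightly higher than in C26 saline muscle. It rose by 0.26 ± 0.10 with 5-fluorouracil in males (4.34, 5.00 and 5.08, against 4.27, 4.64 and 5.11 in C26 saline; adjusted p = 0.0465), and the ranges overlapped almost fully. That call was lost in 11 of the fits that left out 1 library. Cisplatin gave the same 0.26 ± 0.10 in males with an adjusted p of 0.0576, which passed when male cisplatin replicate 4 or 6 or C26 saline replicate 4 was left out. Paclitaxel in males gave 0.19 (adjusted p = 0.165), and the 3 female differences were 0.22, 0.09 and 0.18 for 5-fluorouracil, paclitaxel and cisplatin, with adjusted p of 0.370 to 0.999. Slc11a2 varied little with the GC slope of a library (−0.02 per 0.1, adjusted p = 0.242).

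Ferritin is built from heavy and light subunits, and both mRNAs were measured. Ftl1, the light subunit that helps form the iron core (ENSMUSG00000050708), lay at 7.87, 8.46 and 9.01 in male C26 saline muscle, against 7.52, 7.71 and 8.07 in male PBS muscle. All 8 C26 saline libraries were above the PBS mean and 5 above every PBS library. It rose by 0.61 ± 0.19 (SE; fold 1.53, adjusted p = 0.00952, limma). In females it lay at 7.46, 7.95 and 8.19 in C26 saline muscle, against 7.06, 7.51 and 7.93 in PBS muscle. The female difference was 0.40 ± 0.20 (adjusted p = 0.268), with 6 of 7 C26 saline libraries above the PBS mean, and without the libraries of high GC slope it was 0.50 (adjusted p = 0.0452).

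Cisplatin muscle had less Ftl1 than C26 saline muscle. In males it lay at 7.13, 7.60 and 8.76 under cisplatin, against 7.87, 8.46 and 9.01 in C26 saline muscle, and 5 of 8 cisplatin libraries were below every C26 saline library. It fell by 0.68 ± 0.19 (SE; fold 0.624, adjusted p = 0.00692), and the adjusted p was 0.0652 when only the compared groups entered the fit. In females it lay at 7.09, 7.22 and 7.69 under cisplatin, against 7.46, 7.95 and 8.19 in C26 saline muscle. All 6 cisplatin libraries were below the C26 saline mean, and the difference of −0.64 ± 0.21 did not pass (adjusted p = 0.0857), though it did with only the compared groups in the fit (adjusted p = 0.0144).

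The other drugs gave smaller Ftl1 differences over C26 saline, of −0.31 with 5-fluorouracil and −0.11 with paclitaxel in males (adjusted p = 0.208 and 0.696) and −0.36 and −0.24 in females (adjusted p = 0.548 and 0.965). Ftl1 read higher in libraries of high GC slope, by 0.15 per 0.1. Without those libraries the male differences were −0.61 with 5-fluorouracil (adjusted p = 0.0119) and −0.76 with paclitaxel (adjusted p = 0.0373). Ftl1 has a near copy in the table, Ftl1-ps2, whose reads could be split with it. The sum of both changed by 0.61 in male C26 saline over PBS and by −0.68 in male cisplatin over C26 saline, the same as Ftl1 to 2 decimals.

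Fth1, the heavy subunit that oxidises iron as it enters the shell (ENSMUSG00000024661), did not pass the test for C26 saline over PBS in either sex. It lay at 10.57, 10.67 and 10.78 in male C26 saline muscle, against 10.50, 10.66 and 10.78 in male PBS muscle, and the difference was 0.04 (95% interval −0.16 to 0.23, adjusted p = 0.822). In females it was 0.16 (95% interval −0.05 to 0.37, adjusted p = 0.428). Male paclitaxel was the exception among the drugs: Fth1 lay at 10.70, 11.04 and 11.21 there, against 10.57, 10.67 and 10.78 in C26 saline muscle. It rose by 0.33 ± 0.11 (SE; fold 1.26, adjusted p = 0.0152), with 5 of 6 libraries above every C26 saline library, but was 0.10 once high-slope libraries were left out (adjusted p = 0.627).

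Ncoa4, the receptor that delivers ferritin to lysosomes (ENSMUSG00000056234), likewise did not pass for C26 saline over PBS, with differences of 0.07 in males and −0.01 in females (adjusted p = 0.726 and 0.982). In males it lay at 4.86, 5.29 and 5.68 under paclitaxel, against 5.70, 5.78 and 6.02 in C26 saline muscle. The groups did not overlap. It fell by 0.50 ± 0.13 (SE; fold 0.706, adjusted p = 0.00486). Without libraries of high GC slope the difference was −0.14 (adjusted p = 0.436), and when the slope was a covariate it was −0.10 (adjusted p = 0.392).

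Slc40a1, ferroportin, the one known exporter of free iron in mammals (ENSMUSG00000025993), lay at 3.84, 4.90 and 4.99 in male C26 saline muscle, against 3.77, 4.27 and 4.63 in male PBS muscle. Of the 8 C26 saline libraries 6 were above every PBS library and 1, replicate 8, was far below the rest. The difference of 0.50 ± 0.23 did not pass (adjusted p = 0.106), and did without that library (0.62, adjusted p = 0.0397). In females it was 0.13 (adjusted p = 0.855).

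Each drug group averaged lower in Slc40a1 than C26 saline muscle of its sex. In males it fell by 0.63 ± 0.23 with 5-fluorouracil (3.21, 4.05 and 4.70, against 3.84, 4.90 and 4.99 in C26 saline; adjusted p = 0.0397) and by 0.76 ± 0.25 with paclitaxel (2.40, 4.09 and 5.07, against the same C26 saline values; adjusted p = 0.0172). The ranges overlapped in both. Neither call held without the libraries of high GC slope, where the differences were −0.37 (adjusted p = 0.186) and −0.36 (adjusted p = 0.423). Cisplatin in males gave −0.47 (adjusted p = 0.162), and the female differences were −0.36, −0.59 and −0.35 for 5-fluorouracil, paclitaxel and cisplatin, with adjusted p of 0.454 to 0.708. The paclitaxel value held in 7 of 7 female libraries relative to the C26 saline mean.

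Macrophages, which recycle iron from red cells, are rich in ferroportin. Of 22 macrophage markers 20 were measured, and 12 rose in males and 10 in females, C26 saline over PBS, with none falling, where 26.1% and 6.7% of all genes passed in either direction. Their summed back-transformed level was 119 to 308 in male C26 saline and 84.9 to 126 in male PBS libraries, and 167 to 299 in female C26 saline and 79.9 to 159 in female PBS libraries. Under 5-fluorouracil 6 of the 20 fell in males and 7 in females, under paclitaxel 2 and 0, and under cisplatin 4 and 1, relative to C26 saline. Of all genes, 12%, 18.5% and 8.23% fell in males under the drugs in this order, and 1.2%, 0% and 1.31% in females. Their median summed level under paclitaxel was 212 in males and 233 in females, against 211 and 208 in C26 saline muscle. Fcgr1 was at 0 counts in 1 library, and no other of the 20 was at 0 in any. The part of macrophages in the Slc40a1 and Ftl1 values was not tested.

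The iron sensors gave small differences between C26 saline and PBS muscle. Aco1, the cytosolic aconitase that binds hairpins when it lacks its iron-sulphur cluster (ENSMUSG00000028405), lay at 3.96, 4.28 and 4.58 in male C26 saline muscle, against 4.35, 4.47 and 4.80 in male PBS muscle. Of 8 C26 saline libraries 5 were below every PBS library. It fell by 0.23 ± 0.08 (SE; fold 0.852, adjusted p = 0.0228). The call was lost without PBS replicate 2 (−0.19), C26 saline replicate 1 (−0.18) or C26 saline replicate 5 (−0.21), and with only the compared groups in the fit (adjusted p = 0.0679). The female difference was −0.18 ± 0.08 (adjusted p = 0.208), with 7 of 7 C26 saline libraries below the PBS mean. Relative to C26 saline Aco1 passed the test under no drug in either sex, with differences between −0.05 and 0.09.

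Ireb2, which encodes the sensor IRP2 that is destroyed when iron is plentiful (ENSMUSG00000032293), differed by −0.19 in males and −0.25 in females, C26 saline over PBS (adjusted p = 0.712 and 0.769). With the GC slope as covariate the male value was −0.22 and passed (adjusted p = 0.0109). Relative to C26 saline it passed the test in 1 drug group. Under paclitaxel in males it lay at 2.30, 2.91 and 4.40, against 4.03, 4.23 and 4.50 in C26 saline muscle. It fell by 1.02 ± 0.34 (SE; fold 0.493, adjusted p = 0.0190), and the paclitaxel libraries split: the 4 of high GC slope lay at 2.30 to 2.95 and the other 2 at 4.28 to 4.40, inside the C26 saline range. Without the 4, and the other libraries of high GC slope, the sign turned to 0.08 (adjusted p = 0.871).

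**Figure D3:**
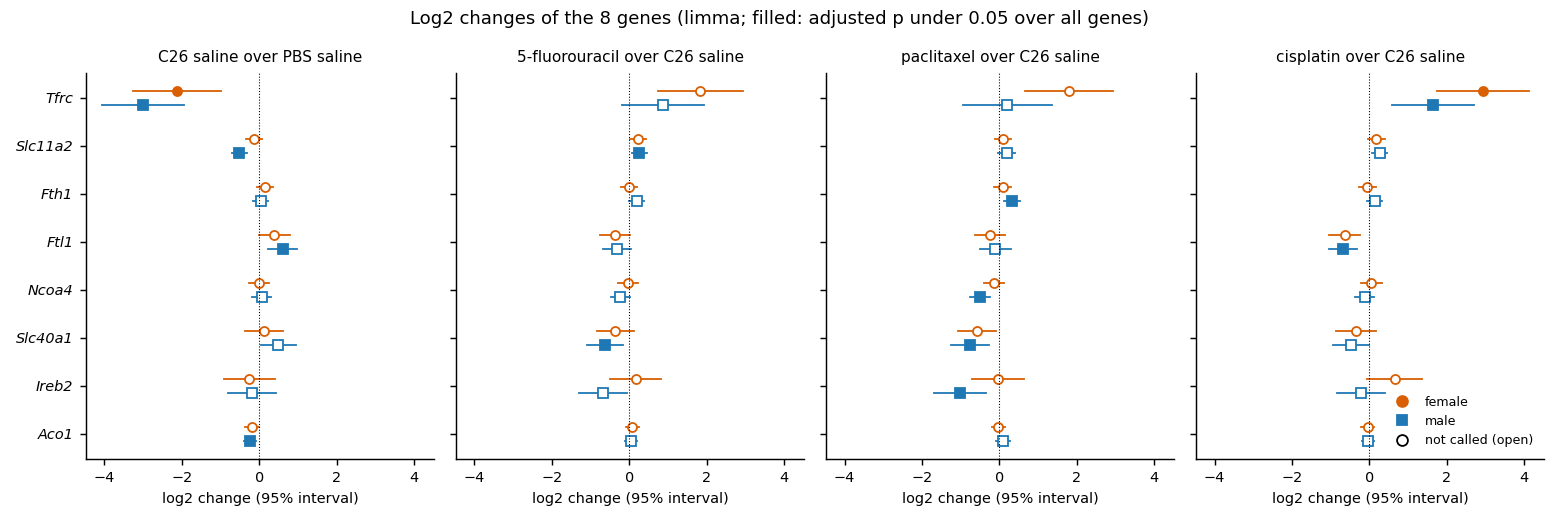
Log2 changes of the 8 genes with 95% intervals (horizontal axis), for C26 saline over PBS saline and for each drug over C26 saline, by sex; filled symbols have an adjusted p under 0.05 over all genes. Tfrc lies left of 0 in the tumour panel and right of 0 in each drug panel in both sexes, and most of the other 7 lie within 1 log2 unit of 0.

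Counted together, 4 of the 8 genes changed in male C26 saline over PBS (Tfrc, Slc11a2, Aco1 and Ftl1), where 26.1% of all genes passed the test, and 1 of 8 in females, where 6.7% passed. The median change of the 8 was −0.08 in females, against −0.01 over all genes. Relative to C26 saline, 2 of 8 changed with 5-fluorouracil in males (23.3% of all genes), 4 of 8 with paclitaxel (31.9%) and 2 of 8 with cisplatin (15.9%). Leaving out 1 library at a time gave 0 to 2, 1 to 5 and 1 to 3, and the paclitaxel count was 2 without the libraries of high GC slope and 1 with that slope as covariate. In females cisplatin changed 1 of 8 (1.66% of all genes), and 5-fluorouracil and paclitaxel changed 0 of 8 by limma (1.35% and 0% of all genes). At an unadjusted p under 0.05 the last 2 counts were 2 of 8 each, Tfrc among them in both.

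Relative to PBS, paclitaxel changed 6 of 8 in males (37.5% of all genes) and 5-fluorouracil 1 of 8 (4.76%), while cisplatin changed 0 of 8 (0.902%), with 3 at an unadjusted p under 0.05. Without the libraries of high GC slope the paclitaxel and 5-fluorouracil counts were 0 and 0. For paclitaxel over PBS the values without them were −0.15 for Slc11a2, 0.17 for Fth1, −0.05 for Ftl1, −0.12 for Ncoa4 and −0.28 for Ireb2, where the fit of all libraries gave −0.32, 0.37, 0.50, −0.43 and −1.21. In females 0 of 8 changed by limma with 5-fluorouracil (0.383% of all genes), paclitaxel (4.58%) or cisplatin (0.209%), with 0, 2 and 1 at an unadjusted p under 0.05. The male-minus-female differences were called for 0 of 8 genes in each of the 4 contrasts, where 0.0361% of all genes passed for the tumour and 0% for each drug. At an unadjusted p under 0.05 they numbered 1 for the tumour (Slc11a2), 1 for paclitaxel (Ireb2) and 0 for the other two. Comparisons of drugs with C26 saline and of C26 saline with PBS share the C26 saline libraries, so opposite signs in them are not independent.

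The 8 genes also differed in how far single libraries strayed. Within groups Tfrc had an SD of 1.09 log2 units, larger than that of 99.2% of the 10673 genes whose values average 1 or more on the log2 scale, and the SD of its 10 group means, 1.17, was larger than that of 99.7%. Ireb2 was next by both measures, with 0.65 within groups and 0.41 between group means. At the other end Aco1 varied by 0.15 within groups, more than 4.26% of those genes did, and by 0.13 between them. Ordered by group mean, neighbours in the order were further apart than the larger of their SDs in few places: for Tfrc, cisplatin above PBS and paclitaxel above C26 saline in females (by 0.82 and 1.80) and PBS above cisplatin in males (by 1.37), and for Slc11a2, PBS above cisplatin in males (by 0.25).

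**Figure D4:**
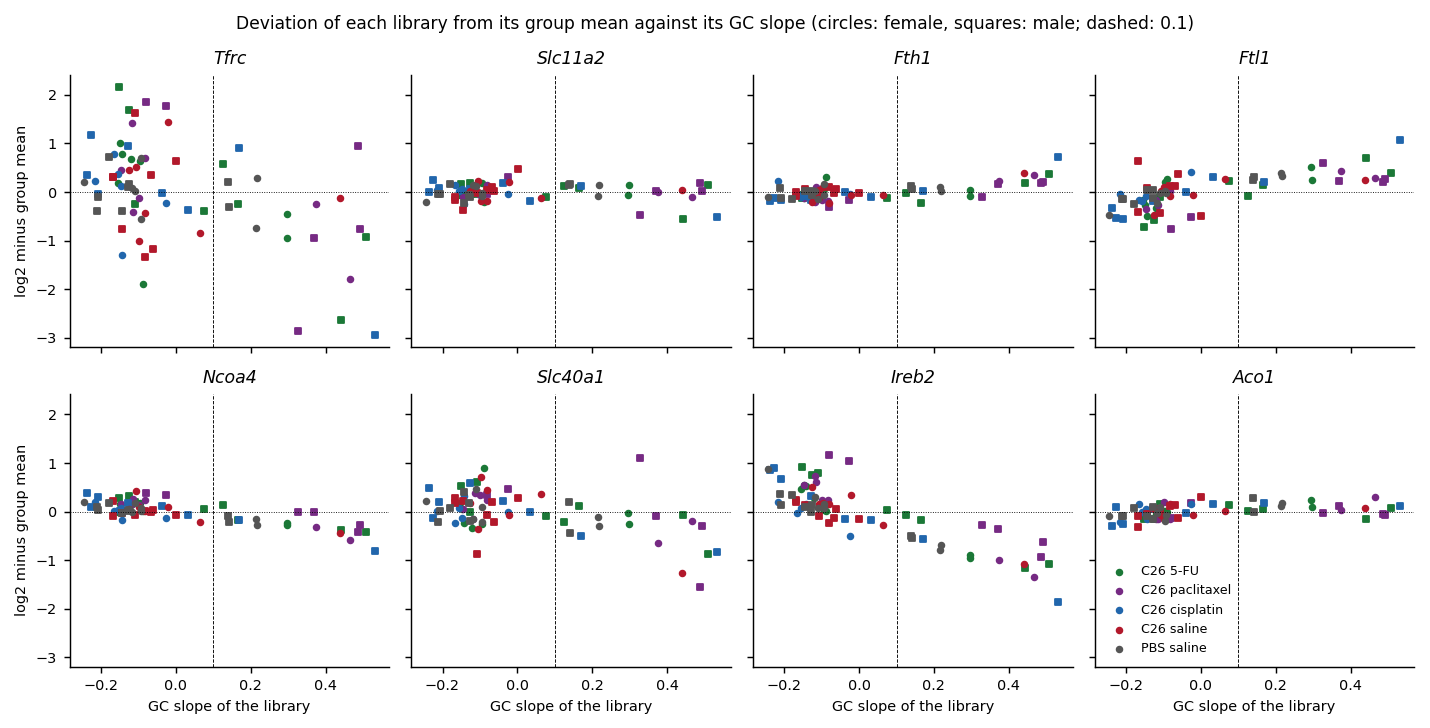
Deviation of each of the 73 libraries from its group mean in each gene (vertical axis, log2) against the GC slope of the library (horizontal axis; dashed line at 0.1), coloured by treatment, with circles for females and squares for males. Ireb2 and Ncoa4 read lower and Ftl1 and Fth1 higher in libraries of high GC slope, and Slc11a2 shows little trend.

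With the GC slope as a covariate in the fit, Ireb2 read lower by 0.31 and Tfrc by 0.30 per 0.1 of slope, Slc40a1 by 0.13 and Ncoa4 by 0.11, while Ftl1 read higher by 0.15, Fth1 by 0.06 and Aco1 by 0.03. The covariate passed the test for 7 of the 8 genes and for 75.3% of all genes. The transcripts of Ireb2 and Tfrc have the lowest GC content of the 8, at 39.0% and 39.8%, and that of Ftl1 the highest, at 58.1%. The genes most like each of the 8 across the 73 libraries, by Pearson r of deviations from group means over 10672 genes, were found with the same libraries in view. For Ireb2 they were Kpna4, Usp9x and Dmxl1 (r = 0.98, 0.97 and 0.97), and for Ncoa4 Uba3, Ppp6c and Trip12 (r = 0.93, 0.93 and 0.92). Tfrc was most like Grb2, Uxs1 and Gtf3c6 (r = 0.85, 0.81 and 0.80), and Slc11a2 most like Gid4, Fez2 and Smyd1 (r = 0.74, 0.73 and 0.71). Ftl1 was most like Ctsz, Ubb and Irf3 (r = 0.88, 0.87 and 0.85), and Fth1 most like Ppp1r1a, Ybx1 and Gnas (r = 0.86, 0.85 and 0.84). For Slc40a1 the genes named are Cd36 and Ssh2 (r = 0.79 and 0.78), and Aco1 was most like Fn3k, Higd2a and Serhl (r = 0.70, 0.70 and 0.69). These values are descriptions, and the libraries differ in GC slope and depth, which all genes of a library share.

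The rest of the iron pathway was counted from lists of named genes, and the counts stand against 26.1% of all genes passing in male C26 saline over PBS and 6.7% in females. Of 16 other measured genes of iron uptake and endosomal handling, 6 rose and 2 fell in male C26 saline over PBS, with a median change of 0.45 against 0.00 over all genes, and 4 rose and 0 fell in females. Lcn2, which binds siderophore iron and is an acute-phase protein also made by neutrophils, rose by 6.75 ± 0.60 in males and 3.77 ± 0.64 in females. Of 12 neutrophil markers 8 were measured, and 8 rose in males and 7 in females. Their summed level ran over 11.1 to 35.1 in male C26 saline and 2.10 to 12.6 in male PBS libraries, and over 6.17 to 38.5 in female C26 saline and 1.45 to 4.28 in female PBS libraries. Relative to C26 saline all 8 fell in males with 5-fluorouracil and with cisplatin, 6 fell with 5-fluorouracil and 2 with cisplatin in females, and none passed with paclitaxel in either sex. Of all genes, 12% fell with 5-fluorouracil and 8.23% with cisplatin in males, and 1.2% and 1.31% in females. With paclitaxel 31.9% of all genes passed in males and 0% in females. Retnlg was at 0 counts in 17 libraries, Cxcr2 in 13, Mmp8 in 9, S100a8 in 5, and S100a9 and Mmp9 in 1 each, and the part of neutrophils in the Lcn2 values was not tested. Slc39a14, an importer of iron not bound to transferrin, rose by 2.39 ± 0.26 in males and 0.94 ± 0.28 in females. Steap4, a ferric reductase, rose by 1.02 ± 0.18 and 0.70 ± 0.19, and Cd163, the haemoglobin scavenger receptor of macrophages, by 1.43 ± 0.27 and 1.07 ± 0.29. Steap3, the endosomal reductase that serves the transferrin cycle, fell in males by 0.68 ± 0.13, a comparison in which it is named after its value was seen.

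Relative to C26 saline, 3 of these genes (Slc39a14, Lcn2 and Steap3) passed the test under every drug in males. Of all genes, 23.3%, 31.9% and 15.9% passed there with 5-fluorouracil, paclitaxel and cisplatin. Libraries of high GC slope were 4 of 8, 4 of 6 and 2 of 8 in these male drug groups and 0 of 8 in C26 saline. The values below include them, and their part in these changes was not tested. Slc39a14 fell relative to C26 saline in males by 1.84 ± 0.26 with 5-fluorouracil, fell by 1.23 ± 0.28 with paclitaxel and fell by 2.03 ± 0.26 with cisplatin. The Lcn2 changes were −3.74, −2.37 and −3.81 in the same order in males, and −2.32 with 5-fluorouracil and −2.93 with cisplatin in females, all past the test. Steap3 rose in males by 0.44, 0.57 and 0.40 with 5-fluorouracil, paclitaxel and cisplatin, and passed in no female drug group.

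Storage and export were counted next. Of 9 measured genes of iron chaperoning and ferritin turnover, 3 rose and 0 fell in male C26 saline over PBS (Atg7 by 0.39, Pcbp2 by 0.21 and Tax1bp1 by 0.41), and 0 changed in females by limma (1 at an unadjusted p under 0.05). Of 5 other export and ferroxidase genes, Flvcr1, described as a haem exporter, rose by 0.88 ± 0.29 in males and 1.19 ± 0.31 in females, while in males Cp, the ferroxidase ceruloplasmin, rose by 0.79 ± 0.28 and Flvcr2 fell by 1.82 ± 0.41. Of 13 genes of iron sensing and mRNA decay, 3 rose in males and 1 in females, shares near those of all genes. Among them were Zfp36l2, a factor of AU-rich mRNA decay (0.58 ± 0.19 in males and 0.66 ± 0.21 in females), and Zc3h12a, which encodes regnase-1, an endonuclease known to cut Tfrc mRNA (0.65 ± 0.17 in males). In male paclitaxel over C26 saline 6 of these 13 fell and 1 rose, where 31.9% of all genes passed and 4 of 6 paclitaxel libraries had a GC slope over 0.1.

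Haem genes were counted by step. In synthesis, Alas1, the rate-limiting enzyme outside red cells, fell by 0.67 ± 0.14 in male C26 saline over PBS, and of 12 genes 2 fell and 0 rose there, whereas in females 1 rose, the red cell isoform Alas2 (1.46 ± 0.47). Relative to C26 saline Alas1 rose in males by 0.57, 0.55 and 0.61 with 5-fluorouracil, paclitaxel and cisplatin. These values include the libraries of high GC slope. In haem breakdown and transport, Hmox1, the haem oxygenase that frees iron, rose by 0.85 ± 0.22 in males and 0.90 ± 0.24 in females, and Hp, haptoglobin, by 3.28 ± 0.53 and 2.04 ± 0.57. Hmox1 fell with cisplatin over C26 saline by 0.67 ± 0.22 in males and 1.03 ± 0.25 in females, and with 5-fluorouracil by 0.87 ± 0.23 in females.

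Iron-sulphur cluster assembly held 31 measured genes, of which 1 rose and 5 fell in male C26 saline over PBS, a lower share than the 26.1% of all genes. In females 0 changed by limma, with 0 also at an unadjusted p under 0.05. The falls were small, such as Isca1 by 0.38 ± 0.09 and Bola3 by 0.36 ± 0.11, and Mms19 rose by 0.40 ± 0.09. In the BMP and hepcidin pathway, which sets systemic iron, Hjv, a BMP coreceptor made in muscle and liver, fell by 0.67 ± 0.11 in males. Relative to C26 saline Hjv rose in males by 0.70, 0.50 and 0.64 with 5-fluorouracil, paclitaxel and cisplatin. Its drug values also include the libraries of high GC slope. Erfe, the hormone erythroferrone, rose by 1.91 ± 0.45 in female C26 saline over PBS and fell by 1.97 under cisplatin in females. Of 11 measured genes tied to ferroptosis, an iron-dependent form of cell death, 6 rose and 1 fell in males (26.1% of all genes passed) and 4 rose and 0 fell in females (6.7%), including Slc3a2 (1.05 ± 0.14 and 0.72 ± 0.15) and, in males, Gpx4, which detoxifies lipid peroxides (0.52 ± 0.11). Of 7 other mRNAs listed as holding an iron-responsive element or thought to, 2 rose in each sex, Hif3a in both (1.37 ± 0.45 in males and 1.69 ± 0.48 in females) and Slc25a28, a mitochondrial iron importer, in males (0.81 ± 0.22).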

How the data were processed

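Gastrocnemius RNA was sequenced with paired ends after TRIzol and column extraction, per the labels' protocols. The authors deposited log2 expression values, 1 for each gene in each library. Salmon, fastp, FastQC, MultiQC, limma, edgeR and the GRCm39 build are named in the submitters' processing notes, with no roles. How low genes were filtered and libraries scaled is not given in the sources used here. The values have the form of a log2 of an estimated count, with a small offset, over a scaled library size, and 85.0 to 90.7% of values came back within 0.02 of a whole number, so no count test was run. The lowest estimated count behind a value was 38 for Tfrc and 53 for Ireb2, and the highest medians were 36500 for Fth1 and 5090 for Ftl1.

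The 75 labelled samples gave 74 columns. Of these 73 were used: 1 female library was put in no group because its labels disagree, and female PBS replicate 8 was not analysed here. Genes were tested with limma 3.58.1 in R 4.3.3 (group means over 10 groups, 63 residual degrees of freedom, empirical Bayes with trend, two-sided, Benjamini-Hochberg over 13856 genes) and the procedure was tested on simulated data. The GC slope of a library was fitted over 10637 genes, with transcript length as a second term, from GENCODE vM21 (13791 IDs matched). The members and lists were chosen with earlier results of these data known. Other iron genes named are those with the 3 smallest adjusted p per list in C26 saline over PBS, or per drug among called genes, with exceptions stated. A few items that these rules name are not reported here.

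Alternatives were quantile normalization, a filter on low values, log2 of the back-transformed value plus 1, only the compared groups, quality weights, a replicate block, the GC slope or mitochondrial share as a covariate, and leaving out the libraries of high GC slope or each library in turn. The replicate numbers of the titles were taken as pairing samples where every same-numbered pair deviated together (correlation over 0.1): this held for female paclitaxel with C26 saline (7 of 7 pairs, 0.156 to 0.800) and for no other of the 8 comparisons with C26 saline or of C26 saline with PBS. Same-numbered pairs were not compared with other pairs, so this rule cannot show that the samples were paired.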

Additional observations from a re-analysis of the deposited data

Results flagged for a closer look

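Within groups of 6 to 8 libraries, 10 of the 80 gene and group combinations had a library whose gap to the others exceeded Dixon's critical value, where chance gives about 1 in 20. Male cisplatin replicate 4 gave 3 of them, with the lowest Tfrc (2.17, next 4.74) and Ncoa4 (4.86, next 5.50) and the highest Fth1 (11.54, next 10.83) of its group. Its GC slope was 0.532 and 1.66% of its expression was mitochondrial. Male 5-fluorouracil replicate 7, with a GC slope of 0.442, had the lowest Slc11a2 of its group (4.34). Female 5-fluorouracil replicate 1, with a GC slope of −0.0887, had the highest Fth1 (10.75) and Slc40a1 (4.81). The remaining 4 were Fth1 in female cisplatin replicate 1 (10.62, high), Ireb2 in female cisplatin replicate 2 (4.14, low), Ncoa4 in male C26 saline replicate 7 (6.02, high) and Slc40a1 in male C26 saline replicate 8 (3.84, low).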

How the results depend on the processing

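Of the members' calls and log2 changes under the 10 other settings, 1330 kept their side of the threshold, 55 passed where they had not and 51 no longer passed. Turns of sign where neither fit passed are counted in the 1330. An example is Ncoa4 in female C26 saline over PBS, at −0.01 in the main fit and 0.03 with quality weights. In another 4 the sign turned and a fit passed. The 4 were in male paclitaxel: Ireb2 over C26 saline (log2 change 0.11 with the GC slope as covariate, log2 change 0.083 without high-slope libraries) and Ftl1 over PBS (log2 change −0.011 and log2 change −0.051). The number of the 8 members called moved by over 1.5 times in the following cases, and the cause was not tested. Without high-slope libraries it was 2 in female C26 saline over PBS, 1, 2 and 2 in female 5-fluorouracil, female cisplatin and male paclitaxel over C26 saline, and 0 and 0 in male 5-fluorouracil and male paclitaxel over PBS. With the GC slope as covariate it was 1 in female 5-fluorouracil and 1 in male paclitaxel over C26 saline (with smaller moves to 6, 3 and 3 in male C26 saline over PBS and male 5-fluorouracil and cisplatin over C26 saline), and 1, 2 and 1 in female paclitaxel, male paclitaxel and male cisplatin over PBS. With the mitochondrial share it was 1 and 1 in the same 2 comparisons over C26 saline, and 1, 2, 1 and 1 in female paclitaxel, male 5-fluorouracil, male paclitaxel and male cisplatin over PBS. With quality weights it was 3, 1 and 3 in female 5-fluorouracil, paclitaxel and cisplatin over C26 saline, 1, 1, 4 and 1 in female paclitaxel, female cisplatin, male 5-fluorouracil and male cisplatin over PBS, and 4 in the male-minus-female paclitaxel difference. With only the compared groups it was 2 in female cisplatin and 1, 2 and 0 in male 5-fluorouracil, paclitaxel and cisplatin over C26 saline. The replicate block gave 1 in male cisplatin over PBS in the fit of all groups. In a fit of the compared groups, an alternative chosen after seeing the data, the block gave 1, 1 and 2 in female 5-fluorouracil, paclitaxel and cisplatin and 1, 0 and 0 in the male groups over C26 saline, and 1 in male paclitaxel over PBS. The numbers are not shown to pair the libraries in any of these comparisons. Leaving out 1 library at a time gave 1 to 1 in female C26 saline over PBS and 3 to 5 in males. Over C26 saline it gave 0 to 1, 0 to 0 and 1 to 1 in female 5-fluorouracil, paclitaxel and cisplatin and 0 to 2, 1 to 5 and 1 to 3 in males. Over PBS it gave 0 to 0 in each female drug group and in male cisplatin, 0 to 2 in male 5-fluorouracil and 4 to 6 in male paclitaxel, and 0 to 0 in the 4 male-minus-female differences. The calls for the fall of Tfrc in C26 saline over PBS in both sexes, its rise with cisplatin in females, and the male C26 saline calls of Slc11a2 and Ftl1 held under all these settings. Group sizes of 6 to 8 and the spread of Tfrc limit what could pass.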

Other observations

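The female library left out of all groups, titled as saline but labelled with 5-fluorouracil as its chemotherapy, read 6.14 for Tfrc, 4.93 for Slc11a2, 10.53 for Fth1, 7.21 for Ftl1, 5.74 for Ncoa4, 4.07 for Slc40a1, 4.87 for Ireb2 and 4.21 for Aco1, on the deposited log2 scale.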
